A study of Rattus norvegicus with 448 samples.

Results

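The Nrf2 oxidative stress response was followed through 4 genes of the 16796 in the table: Nfe2l2 (ENSRNOG00000001548), Nqo1 (ENSRNOG00000012772), Hmox1 (ENSRNOG00000014117) and Gclc (ENSRNOG00000006302). They were chosen by these identifiers for their place in the pathway and not for their values. Earlier results of these data were known when they were chosen. All 4 were found and passed the filter on low levels that left 12234 genes for testing. The samples were livers of 17-week-old outbred rats, from a study that located genetic regions for metabolic traits and asked by mediation analysis whether expression of genes in those regions could drive the traits. The labels give a single group of liver libraries, with no sex, treatment, diet or genotype, and 430 libraries were used. The sources do not say that each library is a separate animal, so p-values measure the spread between libraries.

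Nfe2l2 encodes Nrf2, a transcription factor that Keap1 holds in the cytoplasm and marks for degradation, and that reaches the nucleus when electrophiles or oxidants modify Keap1. In the nucleus it pairs with small Maf proteins on antioxidant response elements and raises the transcription of genes for detoxification and glutathione supply. Its activity is set mainly through the stability of the protein, so the messenger RNA of Nfe2l2 is one input among others. Gclc encodes the catalytic subunit of glutamate-cysteine ligase, the rate-limiting step of glutathione synthesis. Nqo1 encodes a quinone reductase and Hmox1 the inducible heme oxygenase, which in liver is abundant in Kupffer cells, the resident macrophages that take up heme from old red cells. In a bulk liver sample, fewer cells of a type and less RNA per cell cannot be told apart.

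Promoter sequences of 3 of the 4 genes are shown because the results turn on which of these genes varied together. They are the 250 bases before the RefSeq start of each gene in build GRCr8, read on the strand of the gene, with motif matches in capitals: the core of the antioxidant response element (TGACNNNGC), the TATA box (TATAAA), the GC box (GGGCGG) and the CCAAT box (CCAAT), each on both strands. Nfe2l2 lies on the minus strand (chr3:81029000-81029249), Nqo1 on the minus strand (chr19:52220268-52220517) and Gclc on the plus strand (chr8:87510226-87510475).
Nfe2l2: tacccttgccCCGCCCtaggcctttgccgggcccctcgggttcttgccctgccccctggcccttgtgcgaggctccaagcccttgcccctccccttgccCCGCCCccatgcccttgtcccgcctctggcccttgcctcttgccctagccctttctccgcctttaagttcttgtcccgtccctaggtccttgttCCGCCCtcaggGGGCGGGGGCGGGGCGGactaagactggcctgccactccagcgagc
Nqo1: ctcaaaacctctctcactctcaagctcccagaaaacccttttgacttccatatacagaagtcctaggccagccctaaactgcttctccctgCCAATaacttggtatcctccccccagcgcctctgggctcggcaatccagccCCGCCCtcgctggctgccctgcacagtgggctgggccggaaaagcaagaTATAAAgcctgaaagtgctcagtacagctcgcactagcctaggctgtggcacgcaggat
Gclc: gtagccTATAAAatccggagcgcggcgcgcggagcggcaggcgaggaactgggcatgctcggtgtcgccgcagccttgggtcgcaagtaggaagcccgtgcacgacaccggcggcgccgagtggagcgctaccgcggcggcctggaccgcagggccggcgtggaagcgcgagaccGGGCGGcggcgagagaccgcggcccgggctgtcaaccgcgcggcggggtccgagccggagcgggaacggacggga
The response element core was matched in none of the 3 windows, and 10.1% of 33469 rat promoters of the same length held it, so these letters are simply not in this stretch. The GC box was matched 6 times in Nfe2l2, where the last 3 matches overlap or adjoin, and 1 time each in Nqo1 and Gclc, and 30.5% of all promoters held it. Nqo1 had a TATA box 59 bases before its start and a CCAAT box farther upstream, and Gclc had a TATA box at the far end of its window. The TATA box was held by 12.9% of all promoters and the CCAAT box by 11385 of the 33469. The windows of Gclc and Nfe2l2 were rich in G and C, with 74.8% and 69.2%, against 56.4% in Nqo1 and a median of 51.2% over all promoters.

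The depth behind the levels was high in most libraries. The median library had 24576295 reads, as recovered from the deposited values, and the lowest and highest had 186161 and 61301245. Fewer than 10000000 reads were found in 25 libraries, and fewer than 1000000 in 3 of these. The medians for single genes were 6400.5 reads for Gclc, 4163.5 for Nfe2l2, 824 for Nqo1 and 665.5 for Hmox1. Counting noise was small against the differences between livers: it made up 0.73% of the variance of the log2 level for Nfe2l2, 0.48% for Nqo1, 2.76% for Hmox1 and 0.56% for Gclc. Recovered reads are a reconstruction, and neither PCR copies nor the reads of 1 pair are independent molecules. These shares take each recovered read as independent and cover counting error only. They would be too small if both reads of a pair were counted, which was not tested.

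All 4 genes were well expressed, and Nqo1 varied far more between livers than the rest. Levels are in FPKM, fragments per kilobase of gene and 1000000 reads, here with a size factor in place of the library total. The regulator Nfe2l2 ranged from 21.3 to 149.97 FPKM with a median of 74.9 and a mean of 76.5 ± 20.4 (SD, n = 430). Gclc ranged from 24.1 to 154.37 FPKM with a median of 84.7 and a mean of 84.7 ± 20.5. In mean level Nfe2l2 stood above 90.2% and Gclc above 91.1% of the genes tested. Hmox1 was lower, from 5.76 to 43.6 FPKM with a median of 17.7 and a mean of 18.5 ± 6.84. Nqo1 had a median of 24.5 FPKM and a mean of 26.2 ± 18.7, and reached 116.93 in library LSW_304.

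The lowest Nqo1 value, 0 FPKM in library LSW_226, says little, because that library had 186161 reads and 3 reads of Nqo1 would have been worth 14.352 FPKM there. The next lowest value was 2.72 FPKM from 90 reads in LSW_7. The 95th percentile of libraries lay 11.4 times above the 5th for Nqo1 (59.7 and 5.25 FPKM). The same ratio was 3.47 for Hmox1, 2.49 for Nfe2l2 and 2.29 for Gclc.

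FPKM is scaled by gene length, so the levels of the 4 genes can be ordered within a library. Gclc exceeded Nfe2l2 in 64.4% of the 430 libraries, and the median log2 difference of Nfe2l2 minus Gclc, -0.17, was smaller than its SD of 0.42. The order of these neighbours thus varied between libraries, and whether their levels differ on average was not tested. Nqo1 exceeded Hmox1 in 59.1% of libraries, with a median log2 difference of 0.38 and an SD of 1.23. The order of this pair varied as well, and its average difference was not tested either. The upper and the lower pair hardly crossed: Nfe2l2 exceeded Hmox1 in all but 2 libraries and Gclc exceeded Hmox1 in 430 of 430. Nqo1 reached above Nfe2l2 in 19 livers and above Gclc in 18.

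On the log2(FPKM + 1) scale, which understates the changes of low genes, the SD over libraries was 1.109 for Nqo1, 0.506 for Hmox1, 0.39 for Nfe2l2 and 0.366 for Gclc. The median SD over the genes tested was 0.377. Nqo1 thus had a larger SD than 99.1% of the 12234 genes, and ranked 91st after the usual spread of genes at its level was subtracted. Hmox1 was above 72.9% of genes in SD, Nfe2l2 ranked 5752nd and Gclc was above 47.1%, so Nfe2l2 and Gclc lay near the middle of all genes.

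**Figure D1:**
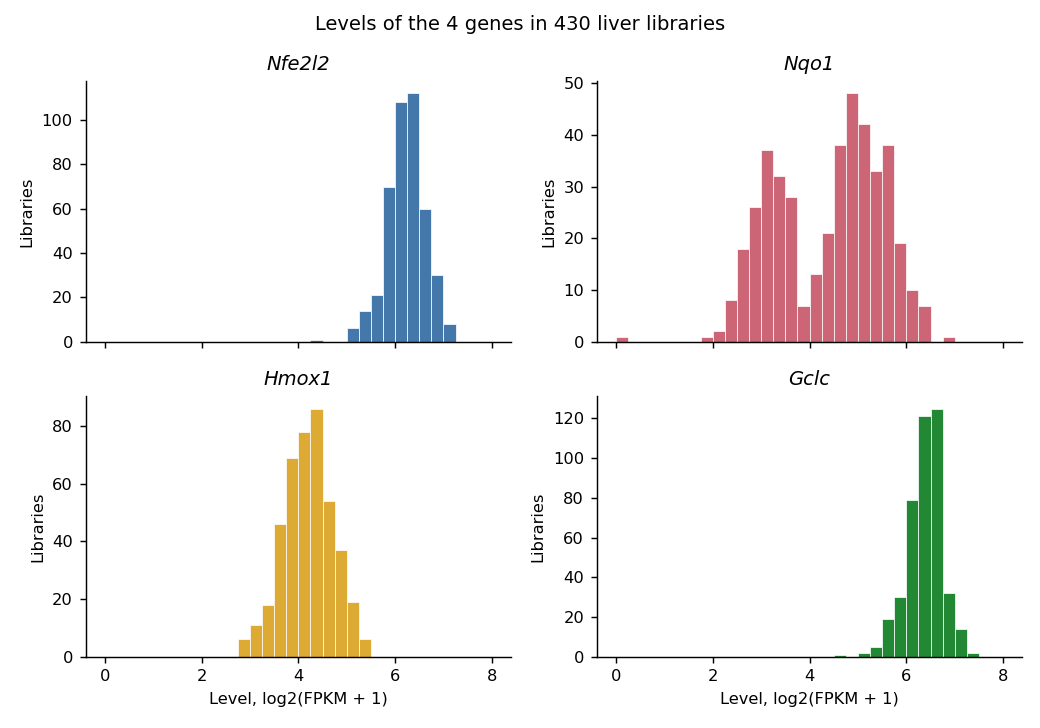
Number of libraries (vertical axis) by level in log2(FPKM + 1) (horizontal axis, bars 0.25 wide) for each of the 4 genes in 430 liver libraries. Nqo1 falls into a lower and an upper group of livers with 7 libraries between 3.75 and 4, while the other 3 genes show no such dip.

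The Nqo1 levels fell into a lower and an upper group of livers. There were 32 libraries between 3.25 and 3.5 on the log2 scale, 28 between 3.5 and 3.75, then 7 between 3.75 and 4 and 13 between 4 and 4.25, and the count rose again to 48 between 4.75 and 5. Put in FPKM, 26 libraries lay between 10 and 12, 3 between 14 and 16, and 88 between 20 and 30. When 2 normal distributions of equal variance were fitted, 38.1% of libraries fell in a lower mode of 8.3 ± 2.77 FPKM (SD) and 61.9% in an upper mode of 37.3 ± 15.5 FPKM. The modes lay 1.98 apart on the log2 scale, or 3.61 common SDs. For 58 libraries the assignment was uncertain, with a probability between 0.05 and 0.95. The classes were made from the levels themselves, so the gap is a description.

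The separation of the Nqo1 modes stayed under the bound of 4 SDs used to call 2 modes. That bound, with at least 5% of libraries in the smaller mode, a gain over 10 in the Bayesian information criterion and an upper mean above the 25th percentile of gene levels, was met by 3.76% of the genes tested (460 of 12234) and by 0 of the 4 genes here. Without the 22 libraries in which the fewest genes were detected, 0.752% of genes met it and again 0 of the 4. The modes of Nqo1 then lay 3.87 SDs apart, farther than in 91.6% of genes, and its gain in the criterion was higher than in 98.7% of genes. With all libraries these shares were 50.2% and 77.4%, and the gain was 87.8. A further component brought no gain for Nqo1 (-10.8). For Hmox1 the modes lay 1.25 SDs apart and a second component brought no gain (-10.6), and for Nfe2l2 the gain was 0.539. The gain for Gclc was 16.7 with 36 libraries in its lower mode, and it was -0.646 without the 22 libraries. The upper mode of Nqo1 held 63.9%, 63.6%, 64.8% and 55.1% of the libraries in 4 consecutive blocks of title numbers, so both groups occurred throughout the series.

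Whether livers that belong together resembled each other was read from the sample identifiers. Each identifier has a first and a second number. What the first one (here the first part) stands for is not in the labels. There were 92 first parts found in more than 1 library, 83 in 2 and 9 in 3, which covered 44.9% of libraries and gave 110 pairs. Sharing libraries lay a median of 3 title numbers apart. Pairs that share no first part but lie within 6 title numbers are given beside them as neighbouring pairs, and the rest as distant pairs.

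Nqo1 was alike in livers with a first part in common, and not in their neighbours. Sharing pairs differed in Nqo1 by a median of 0.44 on the log2 scale, or 1.36 times, against 1.18, or 2.26 times, over 2350 neighbouring pairs and 1.1 over 89775 distant pairs. The correlation of Nqo1 over pairs was 0.687 for sharing, -0.037 for neighbouring and -0.002 for distant pairs. Both livers were in the upper mode in 62 of the 110 sharing pairs, both in the lower mode in 27 and on different sides in 21. The same mode was thus found in 80.9% of sharing pairs, against 50.8% of neighbouring and 52.7% of distant pairs.

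For Nfe2l2, too, sharing pairs were the most alike, with smaller differences. Its sharing pairs differed by a median of 0.24 and had a correlation of 0.427, against 0.35 and 0.033 for neighbouring pairs. For Gclc these were 0.24 and 0.254 in sharing pairs, and 0.3 and 0.049 in neighbouring pairs. The median difference of Hmox1 hardly distinguished the kinds of pairs, at 0.48 in sharing, 0.46 in neighbouring and 0.49 in distant pairs. Its correlation was highest in sharing pairs, at 0.217, 0.088 and -0.005 in the same order.

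**Figure D2:**
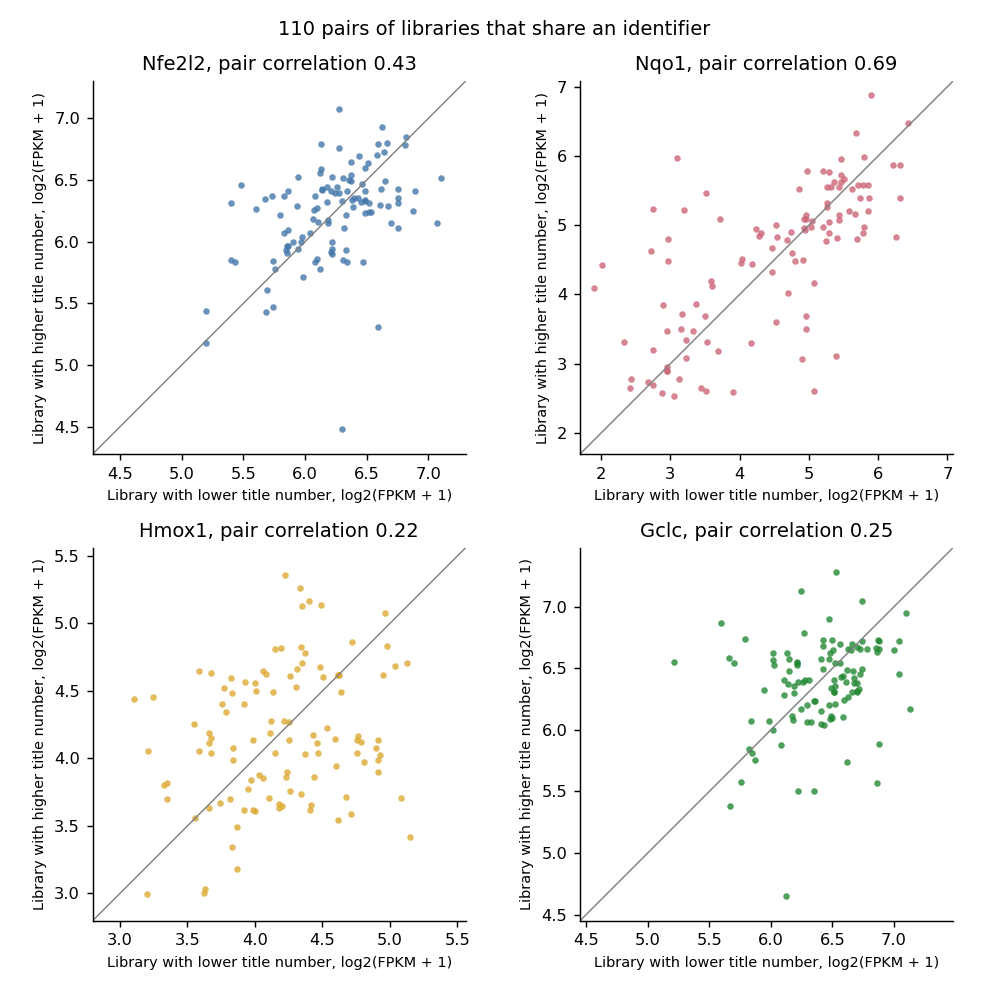
Level in log2(FPKM + 1) of the library with the higher title number (vertical axis) against that of the library with the lower title number (horizontal axis) for the 110 sharing pairs, 1 point per pair, with the line of equality. The points of Nqo1 follow the line over the widest range (pair correlation 0.687), and the pair correlation of Hmox1 is the lowest of the 4 (0.217).

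The size of this resemblance was measured by the intraclass correlation (ICC), which is the part of the variance found between first parts and not within them. It was tested by limma's moderated F test over all genes, with a spline of the title number as covariate. An adjusted p under 0.05 was reached by 59.8% of the genes tested and by 4 of the 4 genes, so passing the test does not set them apart. Without the 22 libraries in which the fewest genes were detected, 27.4% of genes and again 4 of the 4 passed. The ICC of Nqo1 was 0.662 (95% interval from the F distribution 0.532 to 0.762, limma adjusted p = 1.34e-11), the 11th highest of 12234 genes. That of Nfe2l2 was 0.479 (0.308 to 0.62, limma adjusted p = 7.97e-06), above 97.2% of genes. Gclc had 0.311 (0.118 to 0.482, limma adjusted p = 0.00346), above 77.8% of genes. Hmox1 had 0.233 (0.035 to 0.415, limma adjusted p = 0.0183), close to the median gene at 0.219. These places depended on the libraries: without the 22, the median gene had 0.143. Hmox1 then had 0.29, above 80.5% of genes, and Gclc 0.26, above 76.1%. Nqo1 had 0.648, the 31st highest, and Nfe2l2 0.49, above 97.1%. The interval of Nqo1 lies above those of Hmox1 and Gclc, but the differences between ICCs were not tested.

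With the first 5 principal components of all genes as covariates, 56.9% of genes passed, and the ICC was 0.681 for Nqo1, 0.472 for Nfe2l2, 0.445 for Gclc (limma adjusted p = 3.73e-05) and 0.151 for Hmox1. Hmox1 no longer passed (limma adjusted p = 0.0863), while Gclc stood above 91.7% of genes. The F test takes the groups of libraries as independent and the deviations as normal, which the 2 modes of Nqo1 were not.

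**Figure D3:**
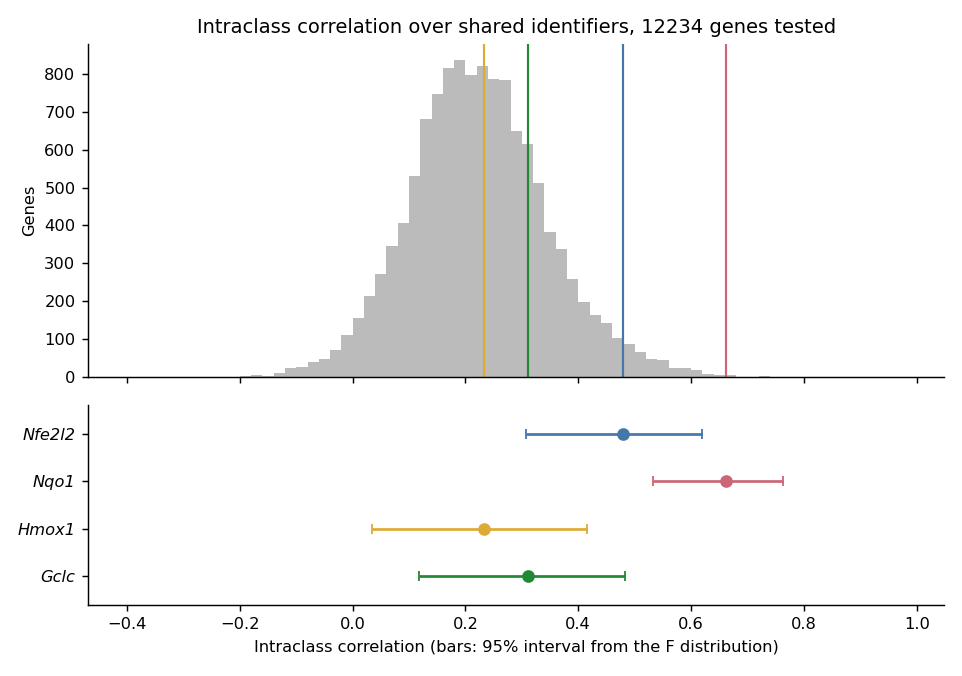
Upper panel: number of genes (vertical axis) by intraclass correlation over shared identifiers (horizontal axis) for 12234 genes, with a line for each of the 4 genes. Lower panel: the 4 values with 95% intervals. Nqo1 at 0.662 lies at the far right of all genes and Hmox1 at 0.233 near their middle.

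The 4 genes did not rise and fall as a set from liver to liver. Of the 6 pairs of genes, 1 was positively correlated, 3 were negatively correlated and 2 were not correlated at the threshold, in permutation tests of Pearson's r with 100000 resamples, two-sided, adjusted over the 6 pairs. This tally depended on the scaling: it was 3 positive, 2 negative and 1 not passing after the first 5 principal components of all genes were removed, and 1, 0 and 5 with each library rescaled to its upper quartile. Libraries that share an identifier or lie near each other are not independent, so these p-values may be too small. The positive pair was Nfe2l2 and Gclc, the regulator and its glutathione target, with r = 0.373 (95% interval 0.289 to 0.452, permutation adjusted p = 2e-05) and Spearman's rho = 0.315 (adjusted p = 2e-05). This adjusted p comes from the smallest p that the resamples can give, 1e-05. The r was 0.37 without the 2 libraries farthest from the median of Nfe2l2, 0.405, 0.387, 0.389 and 0.361 within the 4 blocks of title numbers, and 0.432 with 1 library per first part. Upper quartile rescaling raised it to 0.536 (permutation adjusted p = 6e-05). The r of Nfe2l2 and of Gclc with log10 reads was larger under that rescaling too, at 0.461 and 0.635. Among the r of Nfe2l2 with 12233 other genes, that with Gclc was higher than 99.1%. Among the r of Gclc, that with Nfe2l2 was higher than 68.3%, and than 98.7% after the first 5 principal components of all genes were removed, where r was 0.258.

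Nqo1 went against Gclc. Their r was -0.249 (95% interval -0.336 to -0.158) and their rho -0.238, each with a permutation adjusted p of 2e-05. Both come from the smallest p that the resamples can give. The r was -0.233 without the 2 libraries farthest from the median of Nqo1. It was -0.195, -0.324, -0.189 and -0.286 within the blocks. Of all 12233 genes 2 had a lower r with Nqo1 than Gclc had, although the relation itself was weak. Among the r of Gclc, that with Nqo1 was higher than 29.9%, so it was not extreme from that side. After removal of the first 5 components r was -0.135 (permutation adjusted p = 0.0158). Then 1.75% of genes were lower among the r of Nqo1 and 9.92% among those of Gclc. With each library rescaled to its upper quartile the r of this pair was -0.11 and did not pass (permutation adjusted p = 0.0673). Nqo1 and Nfe2l2 had r = -0.074 (rho = -0.074, permutation adjusted p = 0.153 and 0.149), with 0.02 after upper quartile rescaling, and -0.076 without the 2 farthest libraries. Within the blocks it was -0.08, -0.122, 0.068 and -0.158. With 1 library per first part it was -0.14 and passed (permutation adjusted p = 0.016). No positive relation between the regulator's messenger RNA and Nqo1 was thus detected as measured, with an upper bound of 0.021 on r.

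Hmox1 was tied to the other genes by signs that depended on the scaling. With Nfe2l2 its r was -0.24 (95% interval -0.327 to -0.149, rho = -0.234, permutation adjusted p = 2e-05 for both), and 0.126 (adjusted p = 0.0178) after the first 5 components were removed, so the direction flipped. It was -0.216 without the 2 farthest libraries, -0.044 with upper quartile rescaling, and -0.23, -0.165, -0.407 and -0.171 within the blocks. With Gclc the r was -0.107 (rho = -0.104, permutation adjusted p = 0.0404 and 0.0444), 0.121 without the 5 components and 0.098 with upper quartile rescaling. That relation did not hold within the blocks: r was -0.332 in the first and 0.001, -0.064 and -0.038 in the others. It was -0.114 without the 2 farthest libraries and missed the threshold without the 3 libraries under 1000000 reads (r = -0.097, permutation adjusted p = 0.0653). With Nqo1 no relation was found (r = -0.026, 95% interval -0.121 to 0.068, rho = -0.04, permutation adjusted p = 0.585 and 0.408). Without the 2 farthest libraries it was -0.037, within the blocks 0.041, -0.043, -0.137 and 0.058, and with upper quartile rescaling 0.021. It was -0.099 without the 5 components, which passed (adjusted p = 0.0468).

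**Figure D4:**
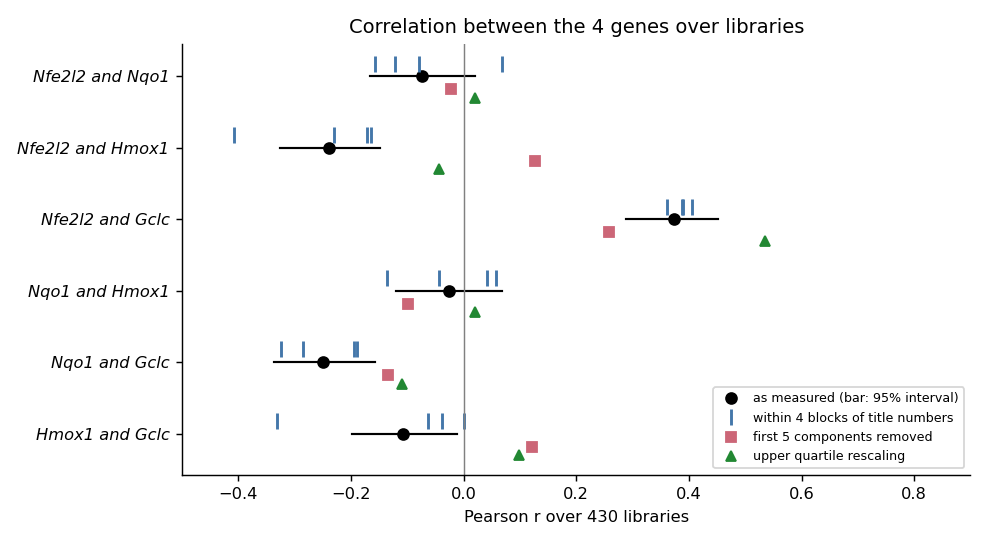
Pearson r over libraries (horizontal axis) for the 6 pairs of genes: black points with 95% intervals as measured in 430 libraries, blue marks within the 4 blocks of title numbers, red squares after removal of the first 5 components, green triangles after upper quartile rescaling. Nfe2l2 and Gclc stay above 0 and Nqo1 and Gclc below 0 in all of them, while for the pairs with Hmox1, and for Nfe2l2 with Nqo1, some of the values lie on the other side of 0.

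Gclc and, less so, Nfe2l2 moved with the depth of the library and with the largest pattern in the data. The first component held 45.7% of the variance over the genes tested and was oriented so that its loadings sum to a positive value. Gclc had r = 0.702 with it (rho = 0.633), r = 0.344 with log10 reads (rho = 0.366) and r = 0.355 with the number of genes above 0 (rho = 0.416). Each had a permutation adjusted p of 4e-05, which comes from the smallest p that the resamples can give, 1e-05. Without the 2 libraries farthest from the median the r values were 0.693, 0.496 and 0.53. With each library rescaled to its upper quartile they were 0.787, 0.635 and 0.654 (permutation adjusted p = 1.5e-05 for each). Within the 4 blocks of title numbers r with log10 reads was 0.412, 0.159, 0.544 and 0.496, and r with the component 0.658, 0.638, 0.798 and 0.702. The part of depth in the Gclc results was not tested.

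With the values as deposited, Nfe2l2 was related weakly to the same measures. Its r was 0.198 for the component (rho = 0.12, permutation adjusted p = 9e-05 and 0.0248). It was 0.139 for log10 reads (rho = 0.105, permutation adjusted p = 0.00609 and 0.0392). For genes above 0 it was 0.151 (rho = 0.111, permutation adjusted p = 0.00418 and 0.0353). The relation with log10 reads did not pass without the 22 libraries in which the fewest genes were detected (r = 0.078, permutation adjusted p = 0.135). Without the 2 farthest libraries the 3 r values were 0.167, 0.208 and 0.233, and in the blocks r with the component was 0.097, 0.208, 0.282 and 0.25. Upper quartile rescaling gave larger values for Nfe2l2, 0.381 for the component, 0.461 for log10 reads and 0.481 for genes above 0. Each of these had a permutation adjusted p of 1.5e-05. For Nqo1 and Hmox1 the r with log10 reads was 0.024 and -0.01 (permutation adjusted p = 0.686 and 0.844; rho = -0.058 and -0.108, adjusted p = 0.277 and 0.0353). For Hmox1 it passed in opposite directions under other settings, at 0.251 with upper quartile rescaling (permutation adjusted p = 1.5e-05) and -0.173 without the 22 libraries (0.00101), and for Nqo1 it passed with that rescaling at 0.123 (0.0124). With genes above 0 it was 0.036 and 0.027 (permutation adjusted p = 0.61 and 0.686), and with upper quartile rescaling 0.136 and 0.292, which passed (0.00589 and 1.5e-05), while without the 22 libraries it was -0.073 and -0.127 (0.141 and 0.0149). Their r with the component was -0.144 and -0.15 (rho = -0.147 and -0.167, permutation adjusted p = 0.00468 and 0.00394 for r). With upper quartile rescaling neither passed, at -0.058 for Nqo1 (permutation adjusted p = 0.251) and 0.03 for Hmox1 (0.538). For Hmox1 the sign thus changed, and its values in the blocks were -0.377, 0.183, -0.216 and -0.236. For Nqo1 they were -0.162, -0.044, -0.145 and -0.192.

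Nqo1 was weakly related to the rest of the liver transcriptome. The first 5 components together held 7.66% of its variance, with 2.65% of genes lower, against 32.5% for Nfe2l2, 46.5% for Hmox1, 62.2% for Gclc and 57.1% for the median gene. The strongest correlation of Nqo1 with any of 12233 genes was 0.361, with ENSRNOG00000012937, and 1.29% of genes had a lower maximum in size. The median gene had a partner at 0.774. There were 2 genes with an r above 0.3 in size for Nqo1, 781 for Nfe2l2, 607 for Hmox1 and 7818 for Gclc. ENSRNOG00000012937 had also the highest r with Nqo1 once the 5 components were removed, at 0.455. The median gene then had a partner at 0.516, and 28.8% of genes had a lower maximum than Nqo1. The maximum of Nqo1 was thus less unusual on that scale. Its median r in size, 0.042, was still above that of only 0.94% of genes.

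The other 3 genes had closer partners. Gclc reached 0.798 with ENSRNOG00000017158 and -0.779 with ENSRNOG00000047089, Nfe2l2 reached 0.629 at the upper end and -0.676 with ENSRNOG00000050946 at the lower, and Hmox1 0.7 and -0.464. These 4 partners were picked as the extremes of a ranking after their values were seen, and they are given by identifier because the sources used here do not pair identifiers with names. All these values are descriptions over the 430 libraries, which share the depth and the component described above.

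Every other gene was also fitted on the level of each of the 4 genes. With limma, 36.8% of 12233 genes went with Nqo1 at an adjusted p under 0.05, 51.3% with Hmox1, 65.1% with Nfe2l2 and 88.3% with Gclc. With each library rescaled to its upper quartile these shares were 28.4%, 50.9%, 82.9% and 89.9%. Without the 22 libraries in which the fewest genes were detected, 69.7% went with Hmox1 and 51.6% with Nfe2l2, so the order of Hmox1 and Nfe2l2 turned. Of the genes that went with Nqo1, 57.5% moved in the same direction as it with the values as deposited and 98.7% after rescaling. This share moved from 45.9% to 96.3% for Hmox1, from 55.6% to 81.7% for Nfe2l2 and from 56.3% to 72.6% for Gclc. With the first 5 components as covariates 1.41% of genes went with Nqo1, 23.6% with Gclc, 35.8% with Nfe2l2 and 42.3% with Hmox1.

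**Figure D5:**
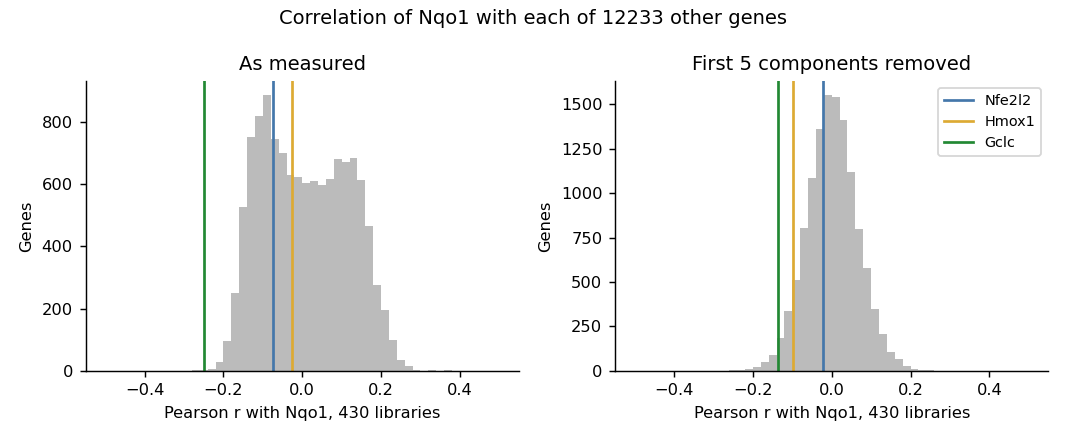
Number of genes (vertical axis) by Pearson r with Nqo1 over 430 libraries (horizontal axis), as measured (left) and after removal of the first 5 components (right), with lines for Nfe2l2, Hmox1 and Gclc. Gclc lies at the lower edge of all 12233 genes as measured (-0.249) and nearer the bulk after removal (-0.135). With upper quartile rescaling and no component removed its r was -0.11, which is not drawn.

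None of the 4 genes changed steadily over the series. Of the genes tested, 8.18% had a linear trend over the title number in limma, and 0 of the 4 did, nor did any reach an unadjusted p of 0.05. The slopes in log2 per 100 title numbers were 0.0085 (SE 0.0145) for Nfe2l2, -0.001 (0.0412) for Nqo1, -0.0021 (0.0188) for Hmox1 and -0.0131 (0.0136) for Gclc. With the 5 components as covariates, 25.2% of genes had a trend, and Hmox1 was among them with a slope of 0.0446 (SE 0.014, limma adjusted p = 0.0102). The medians in the 4 blocks were 17.7, 17.9, 16.2 and 18 FPKM for Hmox1, and 27.5, 23.2, 25.7 and 19.5 FPKM for Nqo1.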

How the data were processed

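RNA from snap-frozen liver was extracted with Trizol and sequenced as 37 bp paired-end reads, per the labels' protocols. The authors deposited 1 table with no unit in its header. The tools named, per the submitters' processing notes, are STAR, Picard, featureCounts and DESeq2, with neither version nor role. Genome build, annotation and strand setting were not given in the sources used here. Values deposited by the authors are FPKM, as read from the values: 99.98% were whole multiples of a gene and library step within 0.001 reads, and step times median-ratio size factor was constant (coefficient of variation 0.0002). The same steps gave the recovered reads and gene lengths of 1571 to 3055 bases for the 4 genes.

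Columns were tied to libraries by the shared identifier. There were 18 libraries without one, not analysed here, and 1 further column of values matched no library and was not used. Tests used log2(FPKM + 1) of genes at 1 FPKM or more in 10% of libraries, limma 3.58.1 in R 4.3.3 with a variance trend, a spline with 4 degrees of freedom and Benjamini-Hochberg adjustment. In simulated reads 64 of 100 genes with an ICC of 0.4, 95 of 100 with 0.7 and 93 of 100 with a slope of 0.1 (log2 per 100 title numbers) were called, over 12234 genes. Correlations used NumPy 2.4.6. The rule for named genes took the 4 genes and, where a symbol was paired with the identifier, list genes and closest genes. No symbols were paired, so the lists of other pathway genes and cell type markers were not analysed here and the tissue label was not checked against markers. The genes and lists were chosen with earlier results of these data known. Alternatives were other pseudocounts, filters, scalings, covariates and subsets of libraries. Those on voom, on 1 library per identifier and on reads under 1000000 were chosen after the data were seen.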

Additional observations from a re-analysis of the deposited data

How the results depend on the processing

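Over the alternatives to the 26 results with a test, 80.7% kept the direction and the side of the threshold. The sign was opposite in 15, and among the others 6 lost and 6 gained the call. Some of the 15 changed the side of the threshold too, such as the slope of Hmox1 with 5 components. Of the 8 results without a test, 3 moved under 1 alternative each. The ICC and its call held for Nfe2l2, Nqo1 and Gclc in all 9 alternatives each, and for Hmox1 in all but the fit with 5 components (0.151). A change of filter could alter only the adjusted p of an ICC or slope, because its size is computed from its own gene. The 80.7% includes these alternatives. With upper quartile rescaling the r of Nfe2l2 and Nqo1 was 0.02, of Nfe2l2 and Hmox1 -0.044, of Nqo1 and Hmox1 0.021, of Nqo1 and Gclc -0.11 and of Hmox1 and Gclc 0.098. It was then 0.123 for Nqo1 and log10 reads, 0.136 for Nqo1 and genes above 0, 0.251 for Hmox1 and log10 reads and 0.292 for Hmox1 and genes above 0, which all passed, and -0.058 for Nqo1 and the first component and 0.03 for Hmox1 and the component. With the first 5 components removed the r was 0.126 for Nfe2l2 and Hmox1, -0.099 for Nqo1 and Hmox1 and 0.121 for Hmox1 and Gclc. With 1 library per identifier it was -0.14 for Nfe2l2 and Nqo1 and 0.013 for Nqo1 and Hmox1, and without the 3 libraries under 1000000 reads -0.097 for Hmox1 and Gclc. Without the 22 libraries (5%) with the fewest genes, the r with log10 reads was 0.078 for Nfe2l2, which no longer passed, -0.076 for Nqo1 and -0.173 for Hmox1, which now passed, and the r with genes above 0 was -0.073 for Nqo1 and -0.127 for Hmox1. The slope over the title number was -0.0091 for Nfe2l2 and 0.0446 for Hmox1 with 5 components, and 0.0009 for Nqo1 with upper quartile rescaling and with voom. The share of genes that went with Nfe2l2 was 35.8%, with Nqo1 1.41% and with Gclc 23.6% with 5 components as covariates. At a filter of 10 FPKM, where fewer genes were tested, these genes numbered 4339 for Nfe2l2 (7958 otherwise), 2869 for Nqo1 (4504), 3081 for Hmox1 (6275) and 5570 for Gclc (10797). Genes called for resemblance numbered 7319, and 4230 at 10 FPKM and 3355 without the 22 libraries. Those with a trend numbered 1001, and 592 at 10 FPKM, 1528 without the 22 libraries and 3079 with 5 components. Apart from the filter, the cause was not tested. No paired analysis was possible because the labels hold 1 group. In the 3 shallowest libraries Nqo1 and Hmox1 rested on 0 to 58 reads.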

Other observations

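The extreme livers of Nfe2l2 and Gclc were in part the same, while the highest and the next highest Nqo1 level came without high Nfe2l2 or Gclc. The lowest Gclc levels, 24.1 FPKM in LSW_344 and 36.2 FPKM in LSW_423, came with 38.6 and 35.7 FPKM of Nfe2l2, above 1.86% and 1.16% of libraries, at 1954052 and 8654820 reads. The highest Nqo1 level, 116.93 FPKM in LSW_304, came with 52.5 FPKM of Gclc, above 5.81% of libraries, with 77.4 FPKM of Nfe2l2 and with 11.6 FPKM of Hmox1, in a library of 8622274 reads that is among those with the fewest genes. The next highest Nqo1 level, 88.4 FPKM in LSW_117, came with 76.02 FPKM of Gclc and 58.9 FPKM of Nfe2l2. Farther down this varied. LSW_115 (85.63 FPKM of Nqo1) had 97.61 FPKM of Gclc, and LSW_263 (83.02) had 52.13. LSW_307 (78.95 FPKM of Nqo1) had 100.12 FPKM of Gclc and 88.52 FPKM of Nfe2l2. The highest Gclc level, 154.37 FPKM in LSW_450, came with 120.8 FPKM of Nfe2l2, above 97.4% of libraries, and with 7.49 FPKM of Nqo1. The next highest, 151.67 FPKM in LSW_84, came with 111.73 FPKM of Nfe2l2, above 94.2% of libraries. The highest Nfe2l2 levels, 149.97 FPKM in LSW_223 and 142.08 FPKM in LSW_357, came with 4.91 and 4.64 FPKM of Nqo1, above 3.02% and 2.56% of libraries.

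The lowest Nfe2l2 level, 21.3 FPKM from 974 reads in LSW_4, lay well under the next, 31.3 FPKM in LSW_63, where Gclc at 40.8 FPKM was above 1.16% of libraries. LSW_4 was of ordinary depth, with 22424608 reads, had 82.9 FPKM of Gclc, near the median, and 34.2 FPKM of Hmox1, above 96.5% of libraries. The highest Hmox1 levels, 43.6 FPKM in LSW_113 and 41.3 FPKM in LSW_2, came with 50.8 and 48.8 FPKM of Nfe2l2. Each of these is a single library with no replicate.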
